A study of Mus musculus with 6 samples.

Results

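Retinoic acid is the active form of vitamin A, and its level in a tissue is set by the enzymes that make it and the enzymes that break it down. The 9 genes described here encode those enzymes and a retinol transporter. Synthesis runs from retinol to retinaldehyde, by the dehydrogenase *Rdh10*, and on to retinoic acid, by the retinaldehyde dehydrogenases *Aldh1a1*, *Aldh1a2* and *Aldh1a3*. *Dhrs3* encodes the reductase that turns retinaldehyde back into retinol. Breakdown is carried out by the cytochrome P450 enzymes *Cyp26a1*, *Cyp26b1* and *Cyp26c1*, and *Stra6* encodes the membrane receptor that takes up retinol from its carrier in blood. In the mouse embryo *Aldh1a2* is the main synthesis enzyme of the trunk mesoderm, and retinoic acid signaling limits the second heart field and is needed for the inflow end of the heart.

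Open chromatin was mapped by ATAC-seq, in which a transposase cuts and tags the DNA that it can reach. Compared here are the posterior second heart field (pSHF), a progenitor field behind the heart, and the atria (HT), both microdissected from pooled wild-type CD1 embryos at embryonic day 10. Each tissue has 3 samples and 1 deposited peak list, so no value per sample was at hand, and no SD, p-value or test between the tissues is given. CD1 is an outbred stock, and each piece holds every cell type of its tissue, so that a change in the share of a cell type and a change within it cannot be told apart.

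The members were all peaks of both lists whose nearest protein-coding gene body was 1 of the 9 genes, at a distance of at most 100 kb. They numbered 42, with 22 of 44018 peaks in the pSHF list and 20 of 49267 in the HT list. A peak with 1 bp or more in common with a peak of the other tissue is called shared. Any other is called restricted, meaning that it did not pass in the other tissue's list. Of the members, 13 of 22 pSHF peaks were restricted (59.1%, exact 95% interval 36.4 to 79.3) and 11 of 20 HT peaks (55.0%, 31.5 to 76.9), against 34.4% of all pSHF peaks and 45.5% of all HT peaks. The intervals cover counting error only, and neighbouring peaks of 1 gene are not independent. Strength is given below as the authors' own values for each peak, the fold enrichment at the summit over the peak caller's background and the −log10 q, where q is the caller's p-value corrected for multiple tests.

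Presence in both tissues went with position. Near a gene end or an annotated start (within 1 kb), 1 of 8 member peaks in pSHF and 2 of 9 in HT were restricted, against 12.1% and 15.0% of all peaks so placed in the pSHF and HT lists. Farther away, 12 of 14 member peaks in pSHF and 9 of 11 in HT were restricted, against 50% of pSHF peaks and 61.4% of HT peaks so placed. The start-proximal shares are thus close to those of the whole lists, and the distal ones lie above them by a few peaks. Distal member peaks present in both lists were found at 2 sites, in *Aldh1a1* and in *Cyp26b1*.

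**Figure D1:**
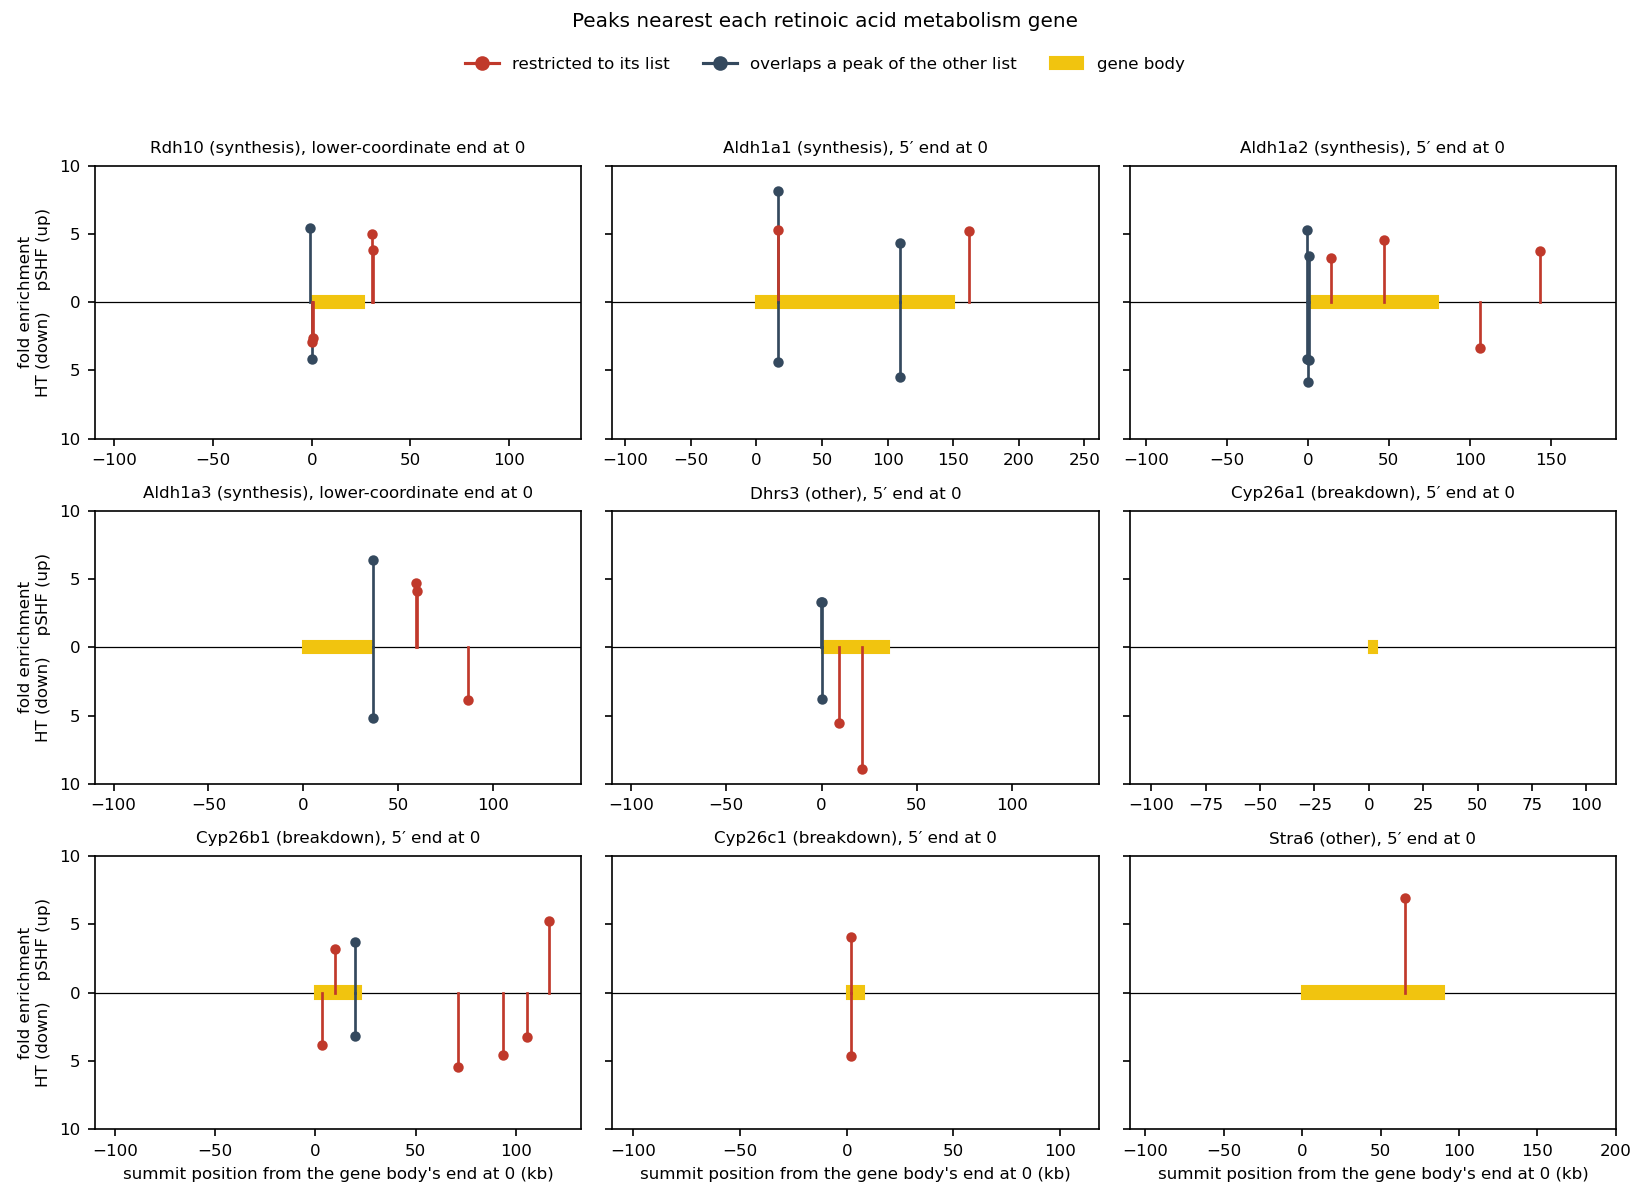
Summits nearest each gene, with the position in kb from an end of the gene body on the x axis and the fold enrichment of the peak on the y axis, upward for the pSHF list and downward for the HT list. Shared peaks stand in dark blue and restricted peaks in red. Shared peaks stand at the ends of *Rdh10*, *Aldh1a2*, *Aldh1a3* and *Dhrs3*, and *Cyp26a1* has no peak in either list.

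The sequences shown are promoters with a peak in both lists, in the pSHF list alone or in neither. They are the 250 bases before a start site in the RefSeq promoter table (GRCm38.p6, the assembly of mm10), 5′ to 3′ on the + strand, which is the coding strand of all of them. That table gave promoters for 7 of the 9 genes, and *Rdh10* and *Aldh1a3* were placed by their gene ends. The first 3 had a peak in both tissues, and capitals mark bases covered by a peak in both lists. They stand upstream of *Aldh1a2* (chr9:71215539-71215788), of the inner start of *Aldh1a1* (chr19:20601718-20601967) and of the first of 3 starts of *Dhrs3* (chr4:144892577-144892826). The stretch before the next *Dhrs3* start (chr4:144892827-144893076), not shown, had 24 of its 250 bases in an HT peak and 0 in a pSHF peak.
Aldh1a2: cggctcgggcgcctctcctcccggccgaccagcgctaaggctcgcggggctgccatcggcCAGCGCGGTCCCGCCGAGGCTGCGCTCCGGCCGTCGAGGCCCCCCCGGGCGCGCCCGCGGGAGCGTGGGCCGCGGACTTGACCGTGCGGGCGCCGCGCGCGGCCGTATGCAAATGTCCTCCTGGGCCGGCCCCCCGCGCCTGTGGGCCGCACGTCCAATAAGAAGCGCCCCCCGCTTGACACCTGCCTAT
Aldh1a1: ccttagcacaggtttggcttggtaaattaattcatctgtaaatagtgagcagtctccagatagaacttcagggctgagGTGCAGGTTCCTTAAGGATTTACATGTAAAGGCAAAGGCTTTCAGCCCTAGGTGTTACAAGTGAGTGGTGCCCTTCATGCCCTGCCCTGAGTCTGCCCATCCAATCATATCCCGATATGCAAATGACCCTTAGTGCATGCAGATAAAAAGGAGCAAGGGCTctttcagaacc
Dhrs3: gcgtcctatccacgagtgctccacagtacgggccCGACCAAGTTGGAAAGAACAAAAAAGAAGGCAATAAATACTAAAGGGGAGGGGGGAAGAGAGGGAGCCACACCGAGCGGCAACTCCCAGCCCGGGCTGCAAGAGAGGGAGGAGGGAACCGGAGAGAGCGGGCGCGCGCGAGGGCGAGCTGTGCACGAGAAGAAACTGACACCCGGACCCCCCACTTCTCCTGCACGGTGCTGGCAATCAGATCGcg

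The next is the stretch before the first of 4 starts that the promoter table gives for *Stra6* (chr9:58128838-58129087), which lies inside the gene body. All 250 of its bases lay in a pSHF peak and 0 in an HT peak, and capitals mark the bases covered in pSHF.
Stra6: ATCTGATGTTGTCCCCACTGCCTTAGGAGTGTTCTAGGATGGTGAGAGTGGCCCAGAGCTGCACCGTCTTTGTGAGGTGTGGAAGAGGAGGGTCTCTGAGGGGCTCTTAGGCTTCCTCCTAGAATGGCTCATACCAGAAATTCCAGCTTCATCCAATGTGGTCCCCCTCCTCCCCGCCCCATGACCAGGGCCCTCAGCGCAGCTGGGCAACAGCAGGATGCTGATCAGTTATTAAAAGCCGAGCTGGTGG

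The last is the stretch before the start of *Cyp26a1* (chr19:37697558-37697807), which no peak of either list touched. Capitals mark a retinoic acid response element of the DR5 type.
Cyp26a1: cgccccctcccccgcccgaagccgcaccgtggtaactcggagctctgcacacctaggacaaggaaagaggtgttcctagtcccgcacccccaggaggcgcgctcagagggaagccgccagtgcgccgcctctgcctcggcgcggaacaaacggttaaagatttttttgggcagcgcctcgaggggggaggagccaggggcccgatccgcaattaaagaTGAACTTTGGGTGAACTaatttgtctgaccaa

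A response element is the site that retinoic acid receptors bind, and DR5 means a pair of half-sites in the same direction with 5 bases between them. The half-sites searched were AGGTCA or AGTTCA and their forms that begin with G, in any combination, on both strands, in the whole 300-base windows of the table (250 bases before to 50 after the start). In *Cyp26a1* the match was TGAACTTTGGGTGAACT, read on the other strand as AGTTCACCCAAAGTTCA, from 32 to 16 bases before the start (chr19:37697776-37697792). DR5 was found in 17 of 21044 windows of protein-coding genes (0.0808%), and *Cyp26a1* was the 1 of the 7 genes in the table that held it. The DR2 form, with 2 bases between half-sites, stood in 0.0903% of windows and the GLI motif TGGGTGGTC in 0.181%, and in 0 of the 7 genes. A lone half-site, which is also part of each DR5 and DR2 match, stood in 41.2% of windows. It stood in 3 of the 7 genes, *Aldh1a1* and *Stra6* besides *Cyp26a1*. Genes and windows are unlike units, since *Stra6* has 4 windows, *Dhrs3* 3 and *Aldh1a1* 2. The *Stra6* match (chr9:58134090-58134095) lay in the window of another start, without a peak in either list, and not in the sequence printed above. A match is a match of letters and not a measured binding site.

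The promoters differed in base composition. The *Aldh1a2* window had 78.0% G and C with an observed-to-expected CpG ratio of 1.11, a CpG-rich promoter, against medians of 56.7% and 0.574 over all windows of protein-coding genes. The inner *Aldh1a1* window, also with a peak in both tissues, had 47.0% and 0.0604. The first *Stra6* window had 55.7% and 0.215, and the *Cyp26a1* window, without a peak, had 62.3% and 0.894. Of these 4 windows, those with the highest and the lowest CpG ratio both had a peak in both lists.

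Over the 7 genes in the promoter table, 3 had a promoter window overlapped by a peak in both lists (*Aldh1a1*, *Aldh1a2* and *Dhrs3*), 1 in the pSHF list alone (*Stra6*) and 3 in neither list (the 3 *Cyp26* genes). Of 17273 protein-coding genes in the table, 55.6% had a peak there in both lists, 2.28% in the pSHF list alone and 39.2% in neither.

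**Figure D2:**
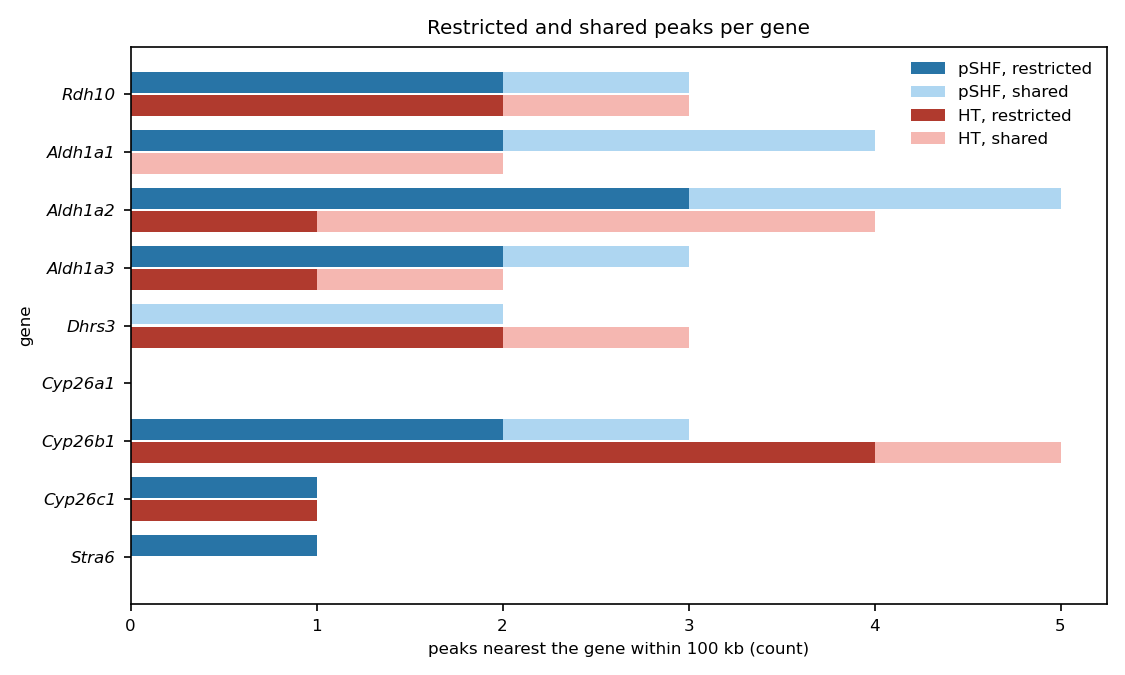
Number of peaks nearest each gene (x axis, count) in the pSHF list (blue, upper bar) and the HT list (red, lower bar), with restricted peaks in the dark shade and shared peaks in the light shade. *Aldh1a2* and *Cyp26b1* have the highest counts, 5 in pSHF and 5 in HT, and *Stra6* has 1 peak, in pSHF.

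The synthesis genes carried 15 pSHF peaks and 11 HT peaks, and each of the 4 had a peak shared by both tissues. *Rdh10*, which catalyses the first step of synthesis (chromosome 1, 16105882 to 16132550), lies next to the ribosomal protein gene *Rpl7*. The pSHF list had 1 wide peak of 1298 bp between them (16104641 to 16105938), with 5 summits. Its strongest summit, 888 bp outside *Rdh10* on the *Rpl7* side, had a fold enrichment over the caller's background of 5.45, at a −log10 q of 12.6. Its summit at the *Rdh10* end had a fold of 4.14, at a −log10 q of 6.89. The HT list had 2 peaks there, 1 nearer *Rpl7* (16104637 to 16105480, fold 6.18, −log10 q 18.8) and 1 across the *Rdh10* end (16105716 to 16105940, fold 4.20, −log10 q 8.30). The last pSHF summit and the HT summit at the *Rdh10* end lay 29 and 28 bp outside the gene, so the site had a peak in both.

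The restricted peaks of *Rdh10* stood elsewhere. Past the other end of the gene, pSHF had 2, at 3.83 and 4.30 kb from the body (16136376 to 16136507 and 16136850 to 16137009). Their fold enrichments were 5.02 and 3.84, and the nearest HT peak was 30.0 and 30.4 kb away. HT had 2 inside the gene (fold 2.90 and 2.62, −log10 q 2.99 and 2.06), 140 and 360 bp from the wide pSHF peak. The pSHF pair thus stood alone and the HT pair stood beside a pSHF peak.

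*Aldh1a2*, the main synthesis enzyme of trunk mesoderm and of the epicardium, had 5 pSHF peaks and 4 HT peaks (chromosome 9, 71215789 to 71296243). At its start, a pSHF peak of 752 bp (71215186 to 71215937) overlapped 2 HT peaks (71215309 to 71215531 and 71215599 to 71215904). The pSHF peak had a summit 529 bp before the start with a fold of 5.28 (−log10 q 6.42) and a second, 87 bp after it, with 4.93 (5.56). The HT summits lay 405 bp before and 33 bp after the start, with folds of 4.20 and 5.88 (−log10 q 3.27 and 6.86). In pSHF the upstream summit was the stronger of the pair, and in HT the one at the start.

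A further shared site stood 471 bp after the start in pSHF (fold 3.34) and 537 bp after it in HT (fold 4.25). The remaining *Aldh1a2* peaks were restricted and weak. In pSHF there were 3, at 14.5 and 46.9 kb inside the gene and 62.8 kb beyond it, with folds of 3.23, 4.55 and 3.77. HT had 1, at 25.7 kb beyond the gene, with a fold of 3.37. All 4 lay below the median fold of their own list, which was 4.85 in pSHF and 5.49 in HT.

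*Aldh1a1* (chromosome 19, 20492583 to 20643463) held the member peak of highest fold in the pSHF list, while by −log10 q the *Rdh10* and *Stra6* peaks stood above it. The *Aldh1a1* peak (20508502 to 20508860) lay inside the gene, 16.1 kb after its outermost start and upstream of its inner start at 20601968. It reached 8.15-fold enrichment (−log10 q 11.3) in pSHF. Its HT partner (20508566 to 20508707), which lay wholly within it, reached 4.39-fold (3.17). The summits were 23 bp apart. From the deposited fold and p, the read pileup at the summit was 16 in pSHF (exact Poisson 95% interval 9.15 to 26.0) and 7 in HT (2.81 to 14.4), and the intervals overlap. Within its own list the peak stood at percentile 87.1 of fold enrichment in pSHF and 24.8 in HT.

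The inner start of *Aldh1a1* had a peak in both lists, while the outermost start had no peak in either. The inner site (20601786 to 20601956 in pSHF, 20601796 to 20602054 in HT) had a fold of 4.31 in pSHF and 5.48 in HT, with summits 87 and 85 bp before the start. Both restricted peaks of the gene were in pSHF. The first (20509012 to 20509129, fold 5.27, −log10 q 4.95) stood 304 bp from the HT peak of the intragenic site, and the second (20654335 to 20654556, fold 5.18, −log10 q 4.58), 10.9 kb beyond the gene, stood 52.3 kb from any HT peak.

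*Aldh1a3* (chromosome 7, 66390892 to 66427477), expressed in mouse embryos mainly in the eye and nose, had a shared site across its higher-coordinate end. The fold was 6.40 in pSHF (66427373 to 66427734, −log10 q 7.82) and 5.18 in HT (66427457 to 66427601, −log10 q 4.93). Beyond that end, pSHF had 2 restricted peaks 22.6 and 23.1 kb away (fold 4.74 and 4.12), and HT had 1 at 50.1 kb (fold 3.84). The pSHF pair lay 22.5 and 23.0 kb from the nearest HT peak.

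The breakdown genes, which are fewer and shorter, had fewer peaks, 4 in pSHF and 6 in HT. None of those peaks stood within 1 kb of a gene end or start. *Cyp26a1* (chromosome 19, 37697738 to 37701536), a direct target of retinoic acid in the mouse embryo, had no peak nearest it in either list, as did 24.7% of 21627 protein-coding genes. *Cyp26c1*, its neighbour (37685112 to 37693320), had 1 peak in each list. The pSHF peak (37687013 to 37687142, fold 4.09, −log10 q 3.25) and the HT peak (37687149 to 37687317, fold 4.68, −log10 q 3.96) were each restricted by the 1 bp rule, but only 6 bases separated them. They stood 1.39 and 1.54 kb after the start, inside the gene.

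Up to 100 kb around the *Cyp26a1* and *Cyp26c1* pair, the other peaks were nearest *Exoc6*, and all were restricted. In pSHF there was 1, 28.2 kb from *Cyp26c1* (37656632 to 37656877, fold 4.85). In HT there were 2, 17.0 and 16.6 kb from it, and the second (37668270 to 37668560) reached a fold of 9.57 and a −log10 q of 15.0, above every member peak of the HT list by fold. That peak was singled out after its values were seen, and which gene it acts on was not measured.

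*Cyp26b1* (chromosome 6, 84571414 to 84593908, − strand) had 3 pSHF peaks and 5 HT peaks. Its 1 shared site lay near the gene's far end, 19.8 kb after the start in pSHF (84573982 to 84574099, fold 3.72) and 19.7 kb in HT (84574044 to 84574164, fold 3.20), with an overlap of 56 bp. In pSHF the restricted peaks stood 9.79 kb after the start (fold 3.16) and 94.0 kb beyond the far end (84477182 to 84477393, fold 5.25, −log10 q 5.17). In HT they stood 3.33 kb after the start (fold 3.84) and 82.6, 70.6 and 48.4 kb beyond the far end, with folds of 3.29, 4.55 and 5.48. Within the 100 kb limit, the peaks beyond the far end of *Cyp26b1* were thus at different places in the tissues. Past the limit, 163.0 kb from the gene, a pSHF peak (84407955 to 84408091, fold 5.08) and an HT peak (84407786 to 84408054, fold 4.38) overlapped.

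*Dhrs3*, which counters synthesis and is induced by retinoic acid in the mouse, held the strongest restricted peaks of the atria among these genes (chromosome 4, 144892534 to 144928209). pSHF had no restricted peak in the gene body, and HT had 2, at 8.55 and 20.8 kb after a start (144901425 to 144901782 and 144913744 to 144914090). Their fold enrichments were 5.56 and 8.94 and their −log10 q 7.36 and 17.5, and they stood 8.60 and 16.3 kb from the nearest pSHF peak. The pileup at the stronger summit was 26 reads (17.0 to 38.1). These were the 2 restricted HT peaks of the 9 genes at or above the median fold of the HT list.

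The *Dhrs3* start had peaks in both tissues. In pSHF the 2 peaks there had folds of 3.29 and 3.30 (144892320 to 144892535 and 144892611 to 144892824). In HT the peak over the first start had a fold of 3.78 (144892592 to 144892850), and the partner of the other pSHF peak (144892359 to 144892533, fold 4.27) ended just before the gene and counted for *Vps13d*. *Dhrs3* lies within the span of *Vps13d*, so all 5 of its peaks overlapped both genes and were given to the closer gene end. A peak within *Vps13d* but off the *Dhrs3* body counted for *Vps13d*. Within 100 kb of *Dhrs3*, whatever the nearest gene, 2 pSHF peaks and 6 HT peaks were restricted.

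*Stra6* (chromosome 9, 58063793 to 58154004) had a single peak, in pSHF (58128816 to 58129349). It covered the first start of the promoter table, with its strongest summit 65402 bp after the 5′ end of the gene body. Its fold was 6.88, its −log10 q 12.6 and its pileup 24 reads (15.4 to 35.7). Its summits lay 90 bp before and 107 bp after the first start, with folds of 5.92 and 6.88, and the nearest HT peak was 28.6 kb away. It was the 1 restricted pSHF peak of the 9 genes near a start, and among the 13 restricted pSHF peaks it had the highest fold. In HT, a restricted peak 29 bp before the 5′ end of the *Stra6* body (58063644 to 58063764, fold 4.31) was given to *Ccdc33*, which overlaps that end. So was a restricted HT peak within the body (58100096 to 58100216, fold 3.90).

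**Figure D3:**
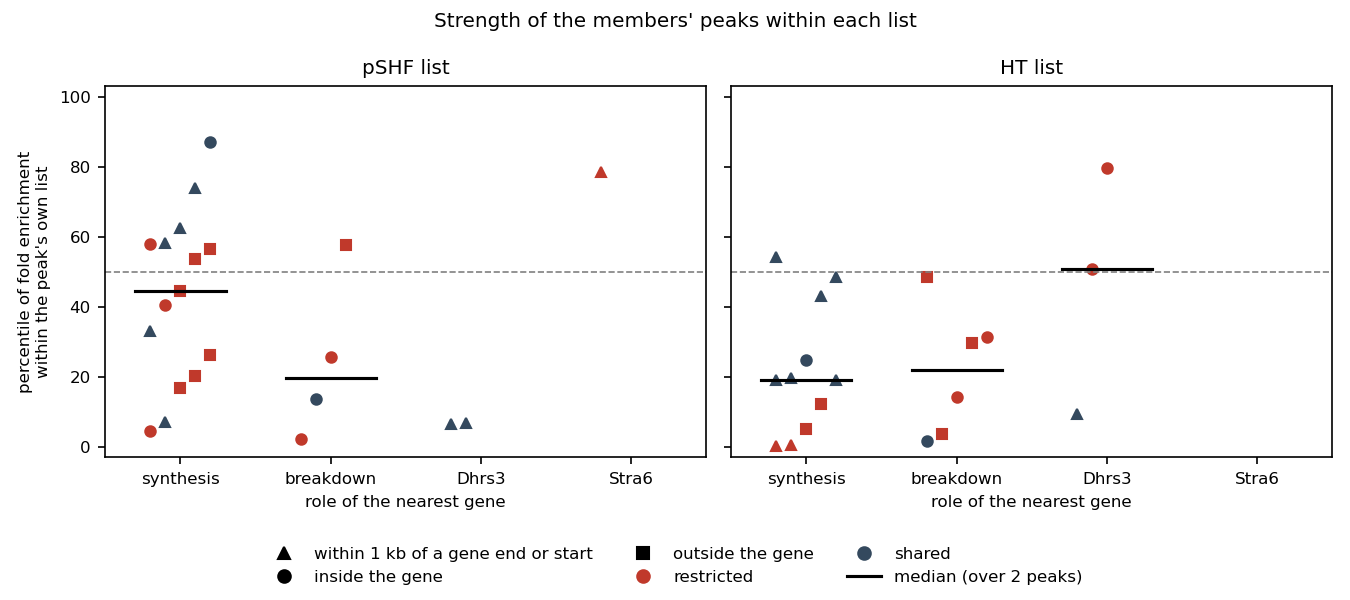
Percentile of each member peak's fold enrichment within its own list (y axis) by the role of the nearest gene (x axis), for the pSHF list at left and the HT list at right. Black bars are medians, drawn where there are over 2 peaks, and the dashed line is the middle of the list. In pSHF the synthesis peaks span percentiles 4.59 to 87.1 and the breakdown peaks 2.24 to 57.6, and in HT the synthesis peaks span 0.0893 to 54.1 and the breakdown peaks 1.69 to 48.5.

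Set against breakdown genes, the synthesis genes had more peaks and more shared ones. The synthesis genes are 4 against 3, and each has a longer body. *Aldh1a1*, *Aldh1a2*, *Aldh1a3* and *Rdh10* span 151, 80.5, 36.6 and 26.7 kb, and *Cyp26a1*, *Cyp26b1* and *Cyp26c1* 3.8, 22.5 and 8.21 kb. Peak counts were not scaled to gene length. In pSHF, 9 of 15 synthesis peaks were restricted (60.0%, 32.3 to 83.7) and 3 of 4 breakdown peaks (75.0%, 19.4 to 99.4). In HT, 4 of 11 synthesis peaks were restricted (36.4%, 10.9 to 69.2) and 5 of 6 breakdown peaks (83.3%, 35.9 to 99.6). The intervals overlap in both lists. A shared peak was found at 4 of 4 synthesis genes and 1 of 3 breakdown genes. The pSHF and HT peaks of *Cyp26c1*, only 6 bases apart, count as restricted in all of these numbers. Read as 1 site, they would add *Cyp26c1* to the breakdown genes with a shared peak and lower both breakdown shares. The share of all protein-coding genes with a shared peak was not counted, so these gene counts have no reference.

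The classes were also counted by place. Within 1 kb of a gene end or start stood 5 of 15 pSHF peaks and 8 of 11 HT peaks of the synthesis genes, and 0 of 4 and 0 of 6 of the breakdown genes, against 41.2% of all pSHF peaks and 34.3% of all HT peaks. More than 1 kb away, 9 of 10 pSHF peaks and 2 of 3 HT peaks of the synthesis genes were restricted, and 3 of 4 and 5 of 6 of the breakdown genes, against 50% of all pSHF peaks and 61.4% of all HT peaks so placed. The HT synthesis count is close to the share of its whole list, and each of these counts rests on 10 peaks or fewer.

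More restricted peaks in pSHF than in HT were found at 3 of the 4 synthesis genes (*Aldh1a1* with 2 and 0, *Aldh1a2* with 3 and 1, *Aldh1a3* with 2 and 1) and at *Stra6*, with equal numbers at *Rdh10*. Of all protein-coding genes, 15.0% had more in pSHF and 29.3% more in HT. Those shares include the 24.7% of genes with no peak in either list, so they are lower than among genes with peaks. More in HT were found at *Cyp26b1* (2 in pSHF and 4 in HT) and *Dhrs3* (0 and 2), and *Cyp26c1* had 1 of each. These are differences of 1 or 2 peaks. By 50% reciprocal overlap the synthesis genes had 12 restricted peaks in pSHF and 9 in HT, and with every peak within 100 kb counted, whatever its nearest gene, 14 and 13 (an alternative chosen after seeing the data). In that count *Aldh1a3* turned to 4 in pSHF and 6 in HT and *Rdh10* had 3 and 4, which leaves *Aldh1a1* and *Aldh1a2* as the synthesis genes with more in pSHF. Restricted peaks with a −log10 q of at least 5 numbered 0 in pSHF and 0 in HT over the synthesis genes and 1 and 1 over the breakdown genes.

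By strength, the member peaks lay in the lower part of their lists, and none was in the top 10% by fold enrichment. The median fold over the members was 4.43 in pSHF and 4.22 in HT, against 4.85 over the whole pSHF list and 5.49 over the whole HT list. At or above the median of their list stood 9 of 22 pSHF peaks and 3 of 20 HT peaks. The site between *Rpl7* and *Rdh10* enters these values unevenly. Its wide pSHF peak counts with the summit on the *Rpl7* side (fold 5.45), while the HT peak nearer *Rpl7* (fold 6.18) was given to that gene. For synthesis genes the median fold was 4.74 in pSHF and 4.20 in HT (percentiles 44.5 and 18.9 within each list), and for breakdown genes 3.91 and 4.20 (percentiles 19.6 and 21.8). Pileups at the members' summits ran from 5 to 32 reads in pSHF (median 10.5) and from 5 to 28 in HT (median 9), so a peak missing from 1 list may lie a few reads below its threshold. Folds of the 2 lists stand side by side here and were not tested against each other.

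Restricted peaks at or above the median fold of their list numbered 5 of 13 in pSHF and 2 of 11 in HT. Over the whole lists, restricted peaks had median folds of 4.31 in pSHF and 4.84 in HT. Those lie below the medians of all peaks, 4.85 and 5.49. The share of all restricted peaks at or above the list median was not counted. In pSHF the 5 member peaks were the *Stra6* peak, the 2 at *Aldh1a1*, the first of the pair past *Rdh10* (5.02) and the distant *Cyp26b1* peak (5.25). In HT they were the 2 inside *Dhrs3*.

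**Figure D4:**
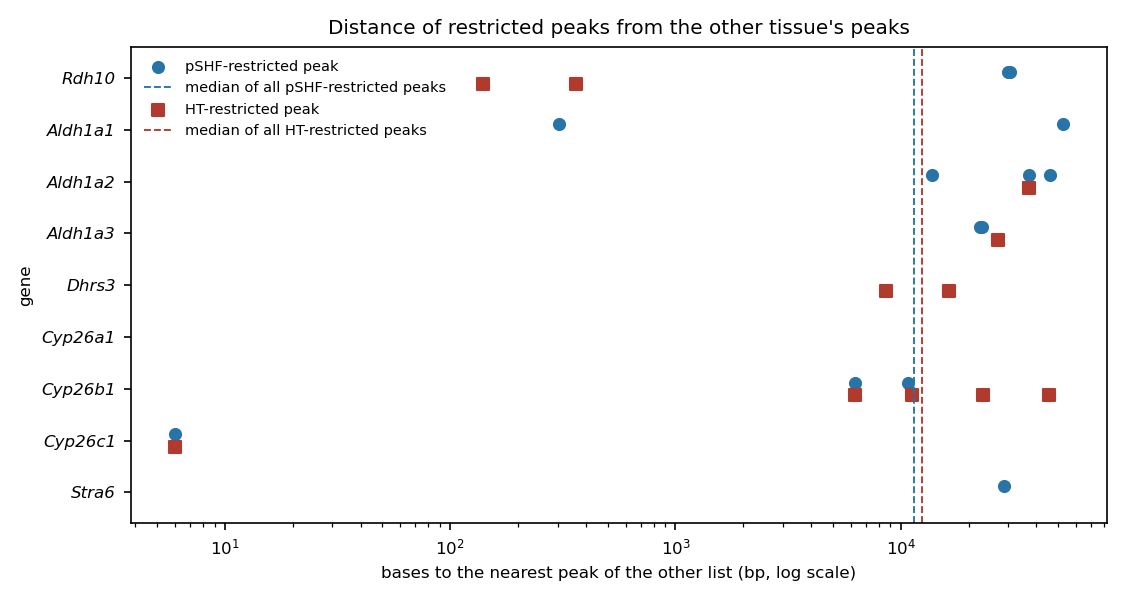
Distance in bp, on a log axis, from each restricted member peak to the nearest peak of the other list, by gene, with pSHF-restricted peaks as blue circles and HT-restricted peaks as red squares. Dashed lines mark the medians over all restricted peaks, 11.4 kb in pSHF and 12.4 kb in HT. The *Cyp26c1* pair lies at 6 bp and the other points under 1 kb belong to *Rdh10* and *Aldh1a1*.

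Some restricted peaks stood next to a peak of the other tissue. A peak of the other list lay less than 1 kb away for 2 of 13 pSHF-restricted and 3 of 11 HT-restricted member peaks, against 19.5% and 13.2% of all pSHF-restricted and HT-restricted peaks. These were at *Aldh1a1* and *Cyp26c1* in pSHF and at *Cyp26c1* and *Rdh10* in HT. At the distance limit, the farthest member peak was the pSHF peak 94.0 kb from *Cyp26b1*. Just outside it stood a pSHF peak 102.0 kb from *Aldh1a3* (fold 4.31) and an HT peak 105.0 kb from *Cyp26b1* (fold 3.29), both restricted.

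Other genes of the retinoid pathway were counted the same way. Over 16 such genes (alcohol and retinol dehydrogenases, storage, carrier and binding protein genes), 6 of 24 pSHF peaks (25%) and 10 of 28 HT peaks (35.7%) were restricted, against 34.4% and 45.5% of the whole pSHF and HT lists. More restricted peaks were found in pSHF at 2 genes, *Adh1* with 2 and 0 and *Lrat*, the retinol-storing acyltransferase gene, with 1 and 0, and more in HT at 7. *Rdh1* had no peak in either list. Over the 6 retinoid receptor genes, 21 of 38 pSHF peaks (55.3%) and 18 of 35 HT peaks (51.4%) were restricted, the HT share being close to that of its list. There were more in pSHF at *Rarb* (9 and 6), *Rarg* (3 and 0) and *Rara* (4 and 2) and more in HT at the 3 *Rxr* genes, among them *Rxrg* with 1 and 4. Over all protein-coding genes, with or without a peak, 15.0% had more in pSHF and 29.3% more in HT.

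Markers of the labelled tissues were counted too. Over 8 cardiomyocyte genes, 1 of 8 pSHF peaks and 25 of 31 HT peaks were restricted, against 34.4% and 45.5% of the whole pSHF and HT lists. Over 7 second heart field genes, 19 of 35 pSHF peaks and 13 of 27 HT peaks were restricted. Without *Foxf1*, which had 7 in pSHF and 1 in HT and was left out after seeing the data, the second heart field list had 12 in each tissue, and *Tbx5* had 4 in pSHF and 6 in HT. The muscle genes *Ttn*, *Nkx2-5*, *Myh6* and *Nppa* had no peak in pSHF and 6, 3, 2 and 1 in HT, and *Tnnt2* went the other way, with 4 peaks in pSHF and 2 in HT. Of markers of other cell types, 21 of 32 pSHF peaks and 12 of 23 HT peaks were restricted over 7 foregut endoderm genes, and 16 of 22 and 6 of 13 over 6 somite genes. Over 6 endothelial genes they were 12 of 23 in pSHF and 31 of 41 in HT, over 6 erythroid genes 0 of 7 and 11 of 18, and over 6 epicardial and mesothelial genes 9 of 21 and 13 of 24. Several of those cell types express genes of retinoic acid metabolism in the mouse embryo, and their part in the member peaks was not tested.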

How the data were processed

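ATAC-seq of 3 pSHF and 3 HT samples was deposited as 1 peak list per tissue. The build was mm10, and MACS2 2.1.1, Picard, SAMtools 1.5 and Bowtie2 2.3.2 were used, per the submitters' processing notes. The sources used here do not give their roles, their settings or whether samples were pooled. Each deposited line gives a score, a fold enrichment over the caller's background, a −log10 p and a −log10 q by the authors' peak caller.

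Lines with equal start and end were merged, keeping the summit of highest fold. Distances ran from the peak's interval to the gene body (0 on overlap), and ties went to the gene end nearest the summit. Genes and promoters came from RefSeq tables of GRCm38.p6, which also gave strand and start sites. All 42 summit pileups were recovered as the whole number that gives the deposited fold, as (pileup + 1)/(background + 1), and Poisson p within 0.01 on the log10 scale. Read totals per sample are not used here, so depth is known only as these pileups. Overlap and assignment were tested on simulated intervals. Python 3.11.15, pandas 2.3.3, NumPy 2.4.6 and SciPy 1.17.1 were used.

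The genes and lists were chosen with earlier results of these data known. All 9 genes were named, with the strongest peak of each list, peaks within 1 kb of a start or end, and restricted peaks no weaker than the median fold of their list. Of other retinoid genes, up to 4 with the largest differences were named (*Rarb*, *Rarg*, *Rxrg* and *Adh1*). *Rara*, *Rdh1*, *Lrat*, the *Exoc6* peak and the other strong HT peaks of neighbouring genes were named after their values were seen. So were the overlapping pair past the limit at *Cyp26b1* and the marker genes. Alternatives covered overlap, thresholds, summits, distance, assignment and gene classes.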

Additional observations from a re-analysis of the deposited data

How the results depend on the processing

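No paired analysis was possible because each tissue has 1 peak list and no value per sample, and for that reason no replicate could be left out. Of 76 counts of restricted peaks under 13 alternatives, 46 stayed within 1.5 times the reported count. Counts below are in the order pSHF-restricted and HT-restricted. A −log10 q of at least 5, set against the whole other list, left 2 and 3 over the 9 genes, 0 and 0 over synthesis genes and 1 and 1 over breakdown genes. The same cutoff in both lists gave 4 and 4, 2 and 1, and 1 and 1. At or above the median fold they were 5 and 2, 3 and 0, and 1 and 0. These settings keep fewer peaks. A 50% reciprocal overlap raised the HT-restricted counts to 17 over the 9 genes and 9 over synthesis genes, so pSHF and HT were equal over the 9 genes at 17 each. They were also equal, at 16 each, with peaks assigned by the nearest gene end. A 50 kb limit left 3 HT-restricted peaks at breakdown genes. With non-coding genes allowed as the nearest gene, 8 and 7 were left over the 9 genes, 5 pSHF-restricted ones at synthesis genes and 2 HT-restricted ones at breakdown genes. Chosen after seeing the data, counting every peak within 100 kb of a member whatever gene was nearest gave 30 and 30, 14 and 13 at synthesis genes and 5 pSHF-restricted ones at breakdown genes. The reported excess of 13 over 11 was thus absent under either −log10 q cutoff, reciprocal overlap, the nearest gene end and every peak within 100 kb. The weakest member peak in either list had 5 reads at its summit, and the part of depth in these counts was not tested.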
